A study of Mus musculus with 8 samples.

Results

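The ephrin, Slit and netrin guidance systems were read as 36 mouse genes, taken from the non-control array probes whose RefSeq name belongs to an Eph receptor, ephrin, Slit, Robo, netrin or netrin receptor gene. They are 36 of 37208 genes and transcripts named on the array, and the rule reads the probe annotation only. They comprise 22 genes of the Eph and ephrin system, 6 of the Slit and Robo system and 8 of the netrin system, read by 48 probes. In untreated cells Slit1 stood 114-fold higher in a choline acetyltransferase-expressing neuroblastoma clone than in its parental line, and Ephb4 stood 53.4-fold lower. The size of both is uncertain: over 20 alternatives the log2 differences ranged from 5.22 to 6.91 and from -6.00 to -4.18. A second Ephb4 probe gave -2.63. With retinoic acid, Slit2, Epha10, Unc5a, Unc5c and Efna5 were higher in the clone and Efnb3 was lower. No Robo receptor gene was well above background on more than 1 array.

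These genes encode the short-range and long-range cues that steer growing axons and migrating cells, and neural crest derivatives such as sympathetic neuroblasts use them to find their routes. Ephrins are membrane-bound ligands: ephrin-A proteins are tethered by a lipid anchor and mostly bind EphA receptor tyrosine kinases, while ephrin-B proteins span the membrane, mostly bind EphB receptors and signal back into their own cell. Slit proteins are secreted and repel growth cones through Robo receptors. Netrins are secreted relatives of laminin that attract growth cones through Dcc and repel them through Unc5 receptors.

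The cells were N18TG2, a mouse neuroblastoma line, and 2/4, a clone of it that expresses ChAT (choline acetyltransferase, which synthesises the transmitter acetylcholine). Both were measured untreated and after 1 µM all-trans retinoic acid (RA), a vitamin A derivative that drives neuroblastoma cells to differentiate. This gave 4 groups of 2 arrays each: parental untreated, parental RA, clone untreated and clone RA. The labels put both lines in medium with 10% serum for growth and place RA in medium with 1% serum. They give neither the duration of RA nor the serum in the untreated samples, so RA and lower serum cannot be told apart here. The 2/4 cells are 1 clone and were kept in 200 µg/mL of the selection drug G418, so the transgene, the selection and the history of that clone cannot be told apart. The labels do not tell whether paired arrays within a group represent independent cultures, so p-values measure only the spread between these arrays, which may be technical.

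All 8 arrays shared 1 scan time and had separate positions in their file names, so they were taken to lie on 1 slide. Parental RA and clone untreated arrays shared one row and the remaining 4 arrays the other, so slide row cannot be told apart from RA within a line, from line within a treatment, or from the interaction. Row cancels only in averages over both lines or both treatments. Slide column does not cancel there: the parental arrays lay in columns 1 and 3 and the clone arrays in columns 2 and 4, so column and line cannot be told apart in any comparison of the lines. Clone RA replicate 1 stands apart: the scanner software marked it for evaluation, and 71.7% of its probes were well above background against 47.7% to 62.8% on the other 7 arrays. Replicate arrays correlated at r = 0.983 to 0.987 in the other groups and at 0.963 in clone RA, across 26247 features. The mouse Chat probe did not separate the clone from the parental line without RA (log2 difference 0.38 ± 1.27 SE, limma adjusted p = 0.897), and the labels do not say whether it reads the introduced copy. Lmna, the lamin A/C gene named in the title of the study, was 1.27 ± 0.26 higher in the untreated clone (limma adjusted p = 0.0254). With RA the lines differed by 0.12 ± 0.26 (limma adjusted p = 0.766). In the clone Lmna was 2.82-fold lower with RA than untreated (limma adjusted p = 0.0307).

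Markers of sympathoadrenal neuroblasts, among them Hand2, Th and Dbh, were well above background on all 8 arrays for 8 of 8 genes, although the extraction protocol names hippocampus as the source. Of 6 hippocampal neuron markers, 2 were above background on all arrays, while Prox1 and Neurod6 were above it on none. Summed over the list, the sympathoadrenal markers ranged from 77.9 to 104 scaled units in parental untreated cells, from 57.6 to 67.9 in parental RA, from 39.0 to 51.8 in clone untreated and from 82.2 to 117.5 in clone RA. They moved with the groups, and their part in the results was not tested. The hippocampal list summed to 0.572 to 0.913 in the parental groups and 0.387 to 0.659 in the clone groups. Schwann cell and glia markers (2 of 6 above background on all arrays) summed to 0.779 to 1.27 in the parental groups and 0.546 to 0.745 in the clone groups. Fibroblast markers (2 of 6, Lum on none) ranged from 0.579 to 1.17 in the parental groups and from 1.08 to 1.41 in the clone groups. Vessel and microglia markers (3 of 6, Cdh5 and Cx3cr1 on none) ranged from 3.79 to 8.22 over all arrays. The part of these shifts in the guidance gene results was not tested. In whole-culture RNA, fewer cells of a type and less RNA per cell cannot be told apart.

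Promoter sequences from RefSeq (GRCm38.p6) were matched for 31 of the 36 genes and not for Slit1, Efnb3, Ntn1, Dcc and Unc5d. The 250 bases before the annotated start are shown for 4 genes on which the line differences turn, chosen after their values were seen, with each CG dinucleotide in capitals.
Slit2, chr5:47982905-47983154, plus strand: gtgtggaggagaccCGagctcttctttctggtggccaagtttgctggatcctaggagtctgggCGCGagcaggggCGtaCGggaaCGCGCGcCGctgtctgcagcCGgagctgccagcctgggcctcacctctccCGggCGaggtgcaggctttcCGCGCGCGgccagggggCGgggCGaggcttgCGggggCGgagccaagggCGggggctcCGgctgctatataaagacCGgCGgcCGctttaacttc
Unc5a, chr13:54949161-54949410, plus strand: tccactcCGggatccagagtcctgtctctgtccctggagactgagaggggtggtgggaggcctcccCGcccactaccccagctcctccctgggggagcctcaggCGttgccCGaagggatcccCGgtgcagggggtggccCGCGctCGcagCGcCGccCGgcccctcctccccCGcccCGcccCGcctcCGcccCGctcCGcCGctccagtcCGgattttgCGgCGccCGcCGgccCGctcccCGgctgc
Epha10, chr4:124881535-124881784, plus strand: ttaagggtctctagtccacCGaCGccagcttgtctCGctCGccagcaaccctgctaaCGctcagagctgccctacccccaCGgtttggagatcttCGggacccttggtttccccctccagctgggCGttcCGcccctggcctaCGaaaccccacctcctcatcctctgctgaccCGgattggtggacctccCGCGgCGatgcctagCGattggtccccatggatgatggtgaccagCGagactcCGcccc
Ephb4, chr5:137349859-137350108, plus strand: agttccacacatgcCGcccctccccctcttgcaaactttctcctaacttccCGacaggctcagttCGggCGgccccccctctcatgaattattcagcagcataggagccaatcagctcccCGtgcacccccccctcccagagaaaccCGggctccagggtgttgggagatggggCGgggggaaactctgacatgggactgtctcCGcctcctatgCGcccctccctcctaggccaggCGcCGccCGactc
These 4 stretches hold 25, 25, 17 and 12 CG dinucleotides in that order. Over the 31 member promoters the median was 17, with 65.6% G and C, against a median of 6 and 52.0% over 27025 promoters of the same length. The 6-base core that retinoic acid receptors bind was searched on both strands as the consensus AGGTCA, the common variant AGTTCA, the second variant GGGTCA or the third variant GGTTCA, counting a promoter once however many matches overlapped. It occurred in 9 of 31 member promoters (29.0%) against 38.4% of all promoters. Among the 4 shown it occurs in Epha10 alone, as the reverse-strand form TGACCC starting 81 bases before the start. Direct repeats of the core spaced by 1, 2 or 5 bases occurred in 0 of the 31 and in 0.426% of all promoters. A match is a description of letters, and its absence says only that these letters are not in this window.

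Of the 36 genes, 24 had a probe well above background on at least 2 arrays and were tested, 22 of them above background on all 8 arrays. The exceptions among tested genes were Epha1 and Epha10. Coverage differed by role: all 3 Slits, all 5 ephrin-A genes and 4 of 5 netrin receptors were tested, but 0 of 3 Robo genes and 1 of 3 netrin genes. A further 5 genes were above background on 1 array only: Ntn4, Robo2 and Unc5d on clone RA replicate 1, Epha2 on parental RA replicate 2 and Ntn1 on parental untreated replicate 2. Another 7 were above background on no array: the receptor genes Epha3, Epha4, Epha6, Ephb1, Robo1 and Robo3, and the ligand gene Efnb1. Over all 55681 probes of the array, 44.9% were above background on all 8 arrays and 20.6% on none. For the 48 member probes these shares were 54.2% and 22.9%.

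**Figure D1:**
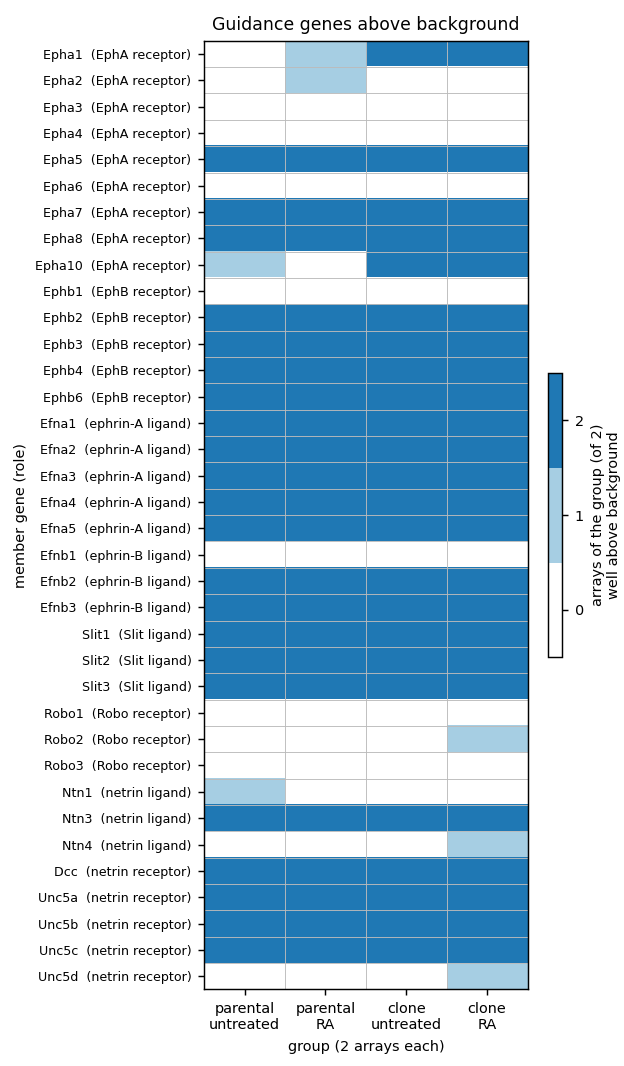
Number of arrays of each group (columns, 2 arrays each) on which the most widely detected probe of each of the 36 genes (rows, with role) was well above background; white is 0, light blue 1 and dark blue 2. The 22 rows that are dark throughout were above background on all 8 arrays, and the 3 Robo rows are almost white.

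Levels below are log2 scaled intensities: the log2 signal of a probe minus the 75th percentile of its array, so that 0 marks that percentile. They compare a probe with itself across arrays and not one gene with another. Differences are log2 differences of group means ± SE from limma, with 2 arrays per group and 1 spread shared by all groups. Calls were made at an adjusted p under 0.05, by Benjamini-Hochberg over 26247 features.

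Without RA, 5 of 24 tested genes differed between the clone and the parental line, 4 higher (Slit1, Efna1, Efna5, Unc5a) and 1 lower (Ephb4). Over all features 9.84% were called, 6.14% higher and 3.7% lower. With RA, 11 of 24 differed, 8 higher (Slit1, Slit2, Epha10, Unc5a, Unc5c, Efna5, Epha1, Ntn3) and 3 lower (Efnb3, Ephb4, Slit3), against a background of 23.2%, 12.9% higher and 10.2% lower. The median difference of the 24 genes was 0.23 without RA and 0.62 with RA, beside 0.11 and 0.11 over all features. Between RA and untreated arrays of the clone, 3 of 24 differed, Epha10 higher with RA and Slit1 and Efna1 lower. The background was 4.63% of all features, 2.58% higher and 2.05% lower. In the parental line 1 of 24 differed, Efnb3, which was higher with RA, against 1.13% of all features, 0.541% higher and 0.591% lower. The medians of the RA differences were 0.39 (clone) and -0.33 (parental), beside 0.02 in both over all features. The comparisons of a line or a treatment share arrays with each other.

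**Figure D2:**
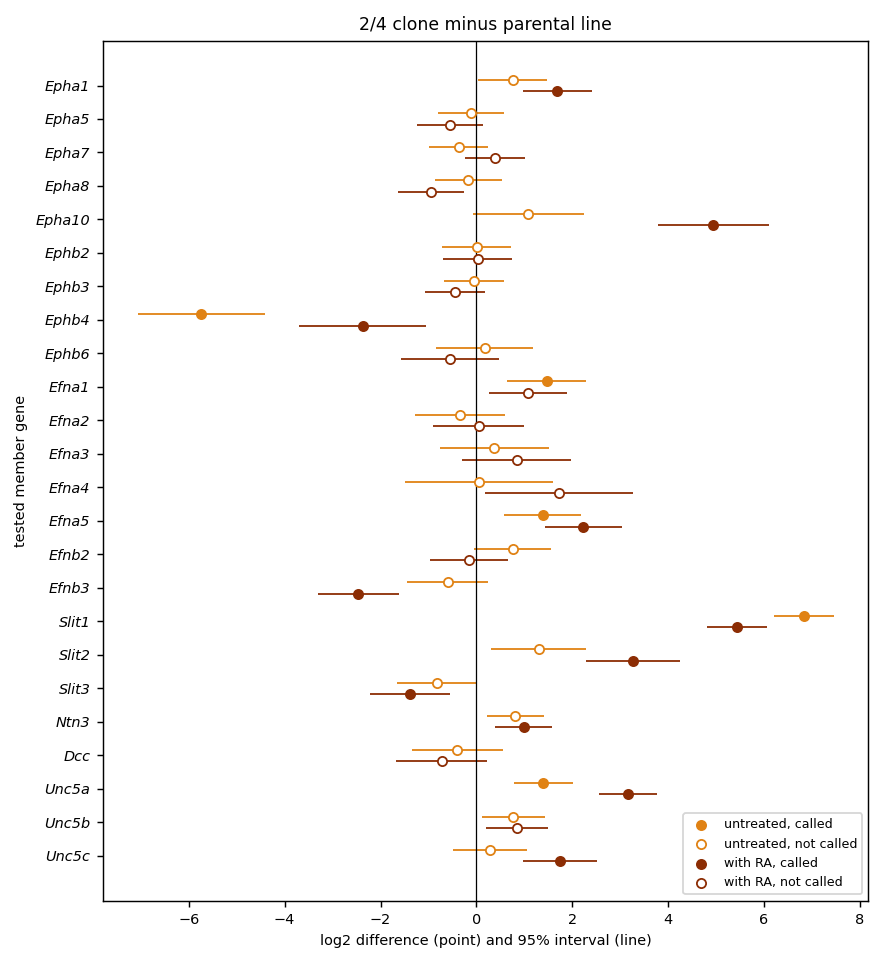
Log2 difference of the 2/4 clone from the parental line (horizontal axis; point, with its 95% interval as a line) for the 24 tested genes (vertical axis), without RA in orange and with RA in brown; filled points passed an adjusted p of 0.05. Slit1 lies farthest to the right, between 5 and 7, and Ephb4 farthest to the left without RA.

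Averaged over both treatments, where slide row cancels but column does not, 13 of 24 genes differed between the lines, 10 higher in the clone and 3 lower. The background was 27.7%, 16.1% higher and 11.6% lower. Those 13 comprise the 12 genes called in any comparison of 2 groups and Unc5b, which was 0.81 ± 0.19 higher (limma adjusted p = 0.0215, lost when dim probes were not filtered or when parental untreated replicate 2 or a clone untreated array was left out, highest 0.0773). The average call of Epha1 was lost with normexp, quantile scaling or a floor for dim signals (0.14 to 0.86 against 1.22, adjusted p up to 0.939), and that of Epha10 with normexp (1.15 against 3.01, adjusted p = 0.0842). Slit3 lost it without parental untreated replicate 2 or clone untreated replicate 1 (adjusted p up to 0.0704). Unc5c lost it with the mean of its probes and without parental untreated replicate 2 or clone untreated replicate 2 (adjusted p up to 0.0715). Averaged over both lines, 4 of 24 differed with RA: Efnb3 by 2.31 ± 0.25, Ntn3 by 0.86 ± 0.18, Efna1 by -1.51 ± 0.24 and Slit1 by -1.19 ± 0.19. The background was 5.83%, 3.13% higher and 2.7% lower. Without parental untreated replicate 1 or 2, or clone untreated replicate 2, 0 of these 4 calls stood. The Ntn3 call, at a limma adjusted p of 0.0413, was lost without any 1 of the 8 arrays and under 4 other alternatives (adjusted p up to 0.17).

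**Figure D3:**
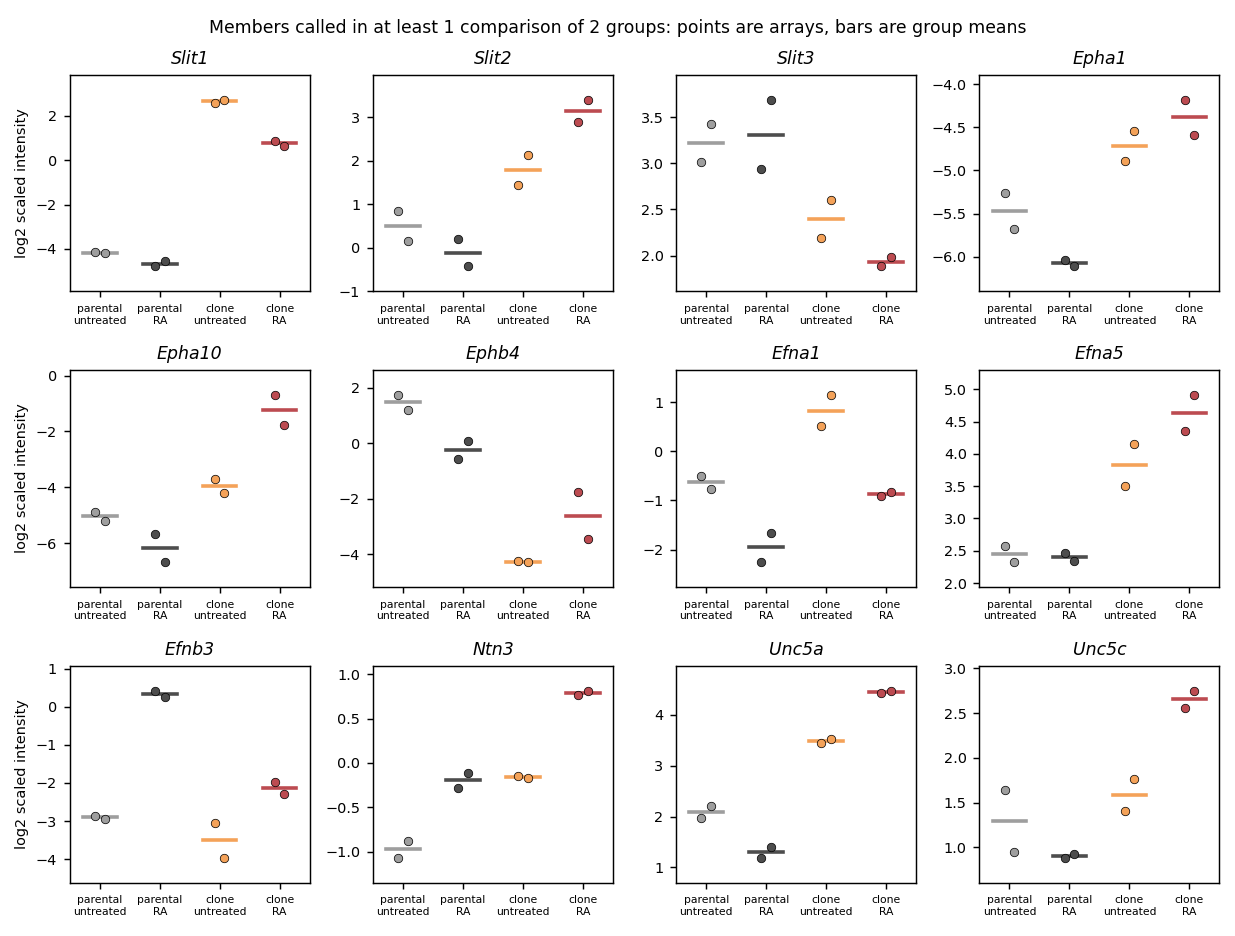
Log2 scaled intensity (vertical axis, own scale in each panel) on each of the 8 arrays for the 12 genes called in at least 1 comparison of 2 groups; points are arrays, bars are means of 2 arrays, and columns are the 4 groups. The 4 clone points of Slit1 lie above 0 and the 4 parental points below -4, while Ephb4 has the reverse order.

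Slit1, one of the secreted repellents that act through Robo receptors, showed the largest difference between the lines of the 24 genes. Its levels were -4.15 and -4.19 in parental untreated cells, -4.79 and -4.54 in parental RA, 2.58 and 2.74 in clone untreated and 0.88 and 0.66 in clone RA. All 4 clone arrays lay far above all 4 parental arrays. The difference was 6.83 ± 0.26 without RA (114-fold, limma adjusted p = 8.41e-05) and 5.43 ± 0.26 with RA (43.2-fold, limma adjusted p = 7.88e-05). Under the 20 alternative settings it ranged from 5.22 to 6.91 and from 3.86 to 5.56 and was always called. In the clone Slit1 was 1.89 ± 0.26 lower with RA than untreated (3.71-fold, limma adjusted p = 0.021). That call ended when any 1 of the 4 untreated arrays was left out, with the difference between -2.01 and -1.72 over the alternatives. It also ended with normexp, with no filter on dim probes and with only the groups compared (limma adjusted p up to 0.1).

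Slit2, the family member most studied as a repellent of axons and migrating cells, was higher in the clone than in the parental line with RA. It read 0.84 and 0.14 in parental untreated, 0.21 and -0.43 in parental RA, 1.45 and 2.13 in clone untreated and 2.90 and 3.41 in clone RA. The clone arrays were the 4 highest, with the RA arrays above the untreated ones. Under RA, Slit2 was 3.27 ± 0.42 higher in the clone (9.62-fold, limma adjusted p = 0.0023, called under all 20 alternatives). Without RA the difference of 1.30 ± 0.42 was not called (limma adjusted p = 0.109, 95% interval 0.31 to 2.29), nor was the RA difference of 1.36 ± 0.42 within the clone (limma adjusted p = 0.119).

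Slit3, the third Slit ligand, ran the other way. Its levels were 3.01 and 3.42, 2.93 and 3.69, 2.20 and 2.60, and 1.88 and 1.99 in the order parental untreated, parental RA, clone untreated and clone RA. The clone arrays were the 4 lowest. With RA it was lower in the clone, by -1.38 ± 0.35 (2.60-fold, limma adjusted p = 0.032). This call ended without any 1 array other than parental RA replicate 1. It also ended with normexp, with no filter on dim probes and with only the groups compared (limma adjusted p up to 0.109). The receptors of these ligands could not be compared: none of the 4 Robo probes passed the filter.

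Ntn3, a netrin, was the only netrin gene tested. Its levels were -1.07 and -0.87 in parental untreated, -0.28 and -0.12 in parental RA, -0.14 and -0.17 in clone untreated and 0.76 and 0.81 in clone RA. Parental untreated arrays were lowest, clone RA arrays highest, and the other 2 groups overlapped. With RA the clone was 0.99 ± 0.25 higher (1.98-fold, limma adjusted p = 0.032), a call lost when any 1 of the 8 arrays was left out. It was also lost with normexp, with no filter on dim probes and with only the groups compared (limma adjusted p up to 0.142). Averaged over treatments the clone was 0.90 ± 0.18 higher (limma adjusted p = 0.0104), and this was called under every alternative.

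Unc5a, a receptor through which netrin repels axons and that can also act as a dependence receptor in cell death, separated all 4 groups. It read 1.98 and 2.21 in parental untreated, 1.19 and 1.40 in parental RA, 3.45 and 3.53 in clone untreated and 4.44 and 4.48 in clone RA. The parental RA arrays were lowest and the clone RA arrays highest. The clone was higher by 1.40 ± 0.26 without RA (2.64-fold, limma adjusted p = 0.0175) and by 3.16 ± 0.26 with RA (8.96-fold, limma adjusted p = 0.000427). The first call was lost without any 1 of the 4 untreated arrays. It was also lost with no filter on dim probes (limma adjusted p = 0.0584). The second stood under all 20 alternatives. RA differences of -0.80 ± 0.26 in the parental line and 0.97 ± 0.26 in the clone had opposite signs and neither was called (limma adjusted p = 0.215 and 0.0863).

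Unc5c, a receptor of the same family, read 1.64 and 0.95 in parental untreated, 0.89 and 0.93 in parental RA, 1.41 and 1.77 in clone untreated and 2.56 and 2.75 in clone RA. Clone RA arrays stood above all others, and the untreated groups overlapped. With RA the clone was 1.75 ± 0.33 higher (3.36-fold, limma adjusted p = 0.00989, called under all 20 alternatives). A second Unc5c probe gave 0.53 ± 0.26 for the same comparison (limma adjusted p = 0.193 in a fit of every probe on its own). Unc5b, which is also known in blood vessel guidance, was 0.77 ± 0.28 higher without RA and 0.85 ± 0.28 higher with RA (limma adjusted p = 0.144 and 0.0667). Neither was called, although all 4 clone arrays, at 4.65 to 5.03, lay above all 4 parental arrays, at 3.63 to 4.40.

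Dcc, the attractive netrin receptor, was not called in any comparison. Its 8 arrays ranged from 5.73 to 7.46, and its 4 differences from -0.72 to -0.38, with 95% intervals between -1.67 and 0.57. Only 1 of its 3 probes passed the filter: another was above background on clone RA replicate 1 only and the last on no array. The probes therefore disagreed on whether Dcc was present, and this gene's level is uncertain.

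Among the ephrin-A ligands, Efna5, best known for mapping retinal axons, was higher in the clone. It read 2.57 and 2.33 in parental untreated, 2.47 and 2.33 in parental RA, 3.50 and 4.15 in clone untreated and 4.36 and 4.91 in clone RA. All clone arrays lay above all parental arrays. The difference was 2.23 ± 0.34 with RA (4.70-fold, limma adjusted p = 0.00456), called under all 20 alternatives. Without RA it was 1.38 ± 0.34 (2.60-fold, limma adjusted p = 0.0499), at the threshold, and was called under 6 of the 20 alternatives (adjusted p 0.0112 to 0.289).

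Efna1, a ligand first found as a gene induced by tumour necrosis factor, was higher in the untreated clone and lower after RA in the clone. Its levels were -0.50 and -0.77, -2.25 and -1.66, 0.51 and 1.14, and -0.92 and -0.83 in parental untreated, parental RA, clone untreated and clone RA. Clone untreated arrays were highest and parental RA arrays lowest. The clone exceeded the parental line by 1.46 ± 0.34 without RA (2.76-fold, limma adjusted p = 0.0423). In the clone Efna1 was 1.70 ± 0.34 lower with RA than untreated (3.25-fold, limma adjusted p = 0.043). The first call was lost without any 1 of the 4 untreated arrays, and the second without any 1 array except clone RA replicate 2. Both were also lost with normexp, with no filter on dim probes and with every probe on its own (limma adjusted p up to 0.114 and 0.126). The second was lost with only the groups compared too (limma adjusted p = 0.12). In the parental line the RA difference of -1.32 ± 0.34 was not called (limma adjusted p = 0.135). The genes next to Efna1 on chromosome 3, Efna3 and Efna4, with 0 protein-coding genes between them in the RefSeq gene order, were called in none of the comparisons.

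Efnb3, a transmembrane ephrin that serves as a midline barrier in the spinal cord, was the only tested gene called for RA in the parental line. It read -2.87 and -2.93 in parental untreated, 0.42 and 0.25 in parental RA, -3.05 and -3.96 in clone untreated and -1.97 and -2.29 in clone RA. The parental RA arrays stood apart above all others. In the parental line it was 3.24 ± 0.36 higher with RA than untreated (9.43-fold, limma adjusted p = 0.0156). That call was lost without any 1 of the 4 parental arrays. It was also lost with normexp and with no filter on dim probes (limma adjusted p = 0.0597 and 0.0718). In the clone the RA difference was 1.37 ± 0.36 (2.59-fold, limma adjusted p = 0.0814). With RA the clone was lower by -2.47 ± 0.36 (5.53-fold, limma adjusted p = 0.00369), and this was called under all 20 alternatives. The other tested ephrin-B gene, Efnb2, which marks arteries, gave 1.44 ± 0.34 for RA in the parental line (limma adjusted p = 0.11).

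**Figure D4:**
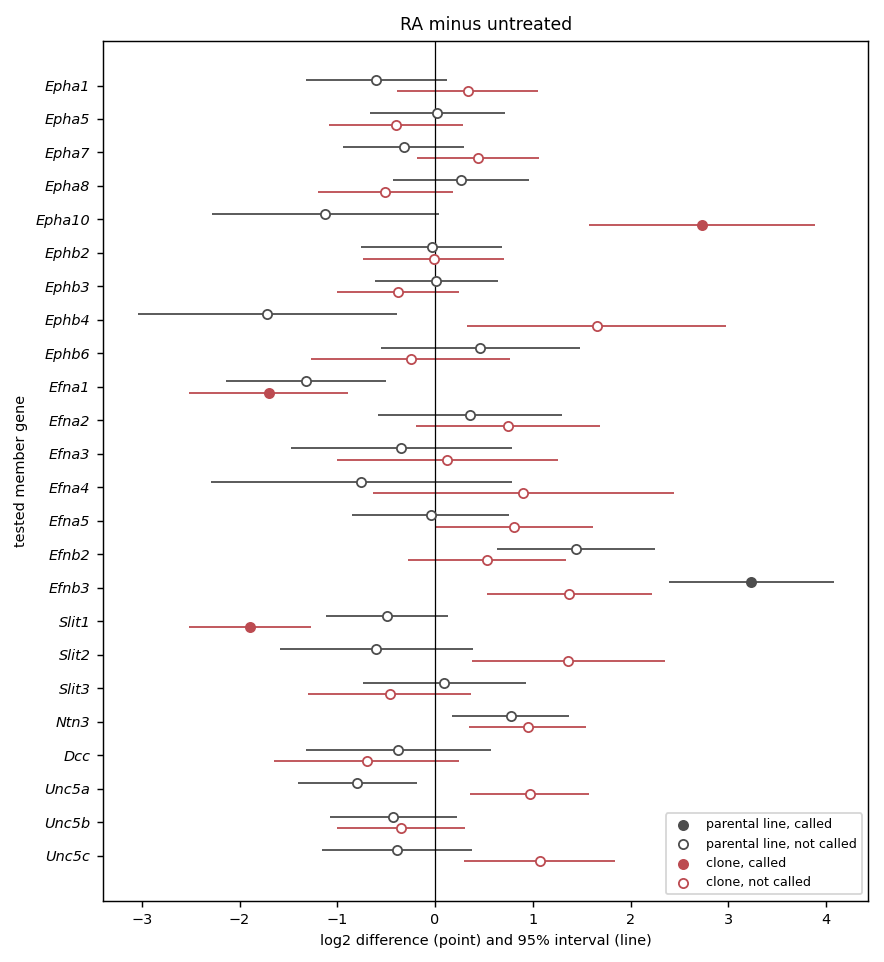
Log2 difference of RA from untreated (horizontal axis; point, with its 95% interval as a line) for the 24 tested genes (vertical axis), in the parental line in grey and in the clone in red; filled points passed an adjusted p of 0.05. Efnb3 at 3.24 is the only filled grey point, and Epha10, Slit1 and Efna1 are the filled red points.

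Epha10, an Eph receptor whose kinase domain lacks residues needed for catalysis, was well above background on 1 of the 4 parental arrays, in the untreated group, and highest in clone RA. Its levels were -4.88 and -5.21 in parental untreated, -5.66 and -6.68 in parental RA, -3.71 and -4.21 in clone untreated and -0.70 and -1.77 in clone RA. Each of the groups was separate from the others. On both parental RA arrays the probe was not well above background. Under the main processing this set a bound of 24.9-fold for the clone with RA. This bound sets the clone mean against, on each dim array, the higher of the lowest signal well above background and the probe's own signal. The measured difference was 4.94 ± 0.49, between 2.34 and 5.47 over 19 alternatives, all called; the filter for probes above background on all arrays leaves this gene out. In the clone Epha10 was 2.73 ± 0.49 higher with RA than untreated (6.64-fold, limma adjusted p = 0.0327). That call was lost without any 1 of the 4 untreated arrays or clone RA replicate 1. It was also lost with normexp, with no filter on dim probes and with only the groups compared (limma adjusted p up to 0.19).

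Epha1, the founding Eph receptor, was dim throughout. It read -5.26 and -5.68, -6.04 and -6.11, -4.89 and -4.54, and -4.18 and -4.59 in the order parental untreated, parental RA, clone untreated and clone RA. The parental arrays were the 4 lowest, and 1 of those 4 was well above background. With RA the clone was 1.69 ± 0.30 higher (3.23-fold, limma adjusted p = 0.00884), but the call was lost with quantile scaling, normexp background correction, a floor for dim signals or only the groups compared, at a lowest difference of 0.47 and an adjusted p up to 0.697.

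Ephb4, the receptor that pairs with ephrin-B2 to separate veins from arteries, was the only EphB receptor gene called. It read 1.74 and 1.22 in parental untreated, -0.55 and 0.08 in parental RA, -4.24 and -4.27 in clone untreated and -1.75 and -3.45 in clone RA. All clone arrays lay below all parental arrays, and the RA arrays of both lines lay nearer to each other than the untreated ones. The clone was lower by -5.74 ± 0.56 without RA (53.4-fold, limma adjusted p = 0.0013), called under all 20 alternatives at -6.00 to -4.18. With RA the difference was -2.37 ± 0.56 (5.16-fold, limma adjusted p = 0.0245). The call with RA was lost without either parental RA array or either clone untreated array. It was also lost with no filter on dim probes and with only the groups compared (limma adjusted p = 0.0621 and 0.0933). RA differences of -1.72 ± 0.56 in the parental line and 1.65 ± 0.56 in the clone were not called (limma adjusted p = 0.216 and 0.149). A second Ephb4 probe gave -2.63 ± 0.54 without RA (limma adjusted p = 0.0316 with every probe on its own, where 8.05% of 36616 probes were called) and -1.31 ± 0.54 with RA (limma adjusted p = 0.139). The probes agreed in sign but not in size.

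The remaining Eph receptors and ephrins did not pass the test between any 2 groups. Ephb2, an EphB receptor of axons and synapses, had differences from -0.04 to 0.03 in the 4 comparisons, with 95% intervals within -0.76 to 0.75. Ephb3, its close relative, had differences from -0.44 to 0.01 with intervals within -1.07 to 0.64. Epha5, a neuronal EphA receptor, had differences from -0.55 to 0.02 with intervals within -1.24 to 0.71, and 1 of its 2 probes was above background on no array. These intervals do not exclude changes as large as their bounds. Wider limits held for Ephb6, which has no active kinase (-1.56 to 1.48), Efna2 (-1.29 to 1.69), Efna3 (-1.48 to 1.97), Efna4 (-2.30 to 3.26) and Efnb2 (-0.96 to 2.25). These limits are of the probe used for each gene. Second probes of Ephb6, Efna3 and Efnb2, each fitted on its own, were not called either. With RA the second Ephb6 probe was 1.10 ± 0.41 higher in the clone, against -0.54 for the used probe. The second Efna3 probe gave 1.32 ± 0.89 there. Without RA the second Efnb2 probe was 1.53 ± 0.49 higher in the clone. Epha8, an EphA receptor of the midbrain, came nearest to a call, at -0.94 ± 0.29 in the clone with RA (limma adjusted p = 0.0589).

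Epha7, which is transcribed into full-length and shortened receptors, was read differently by its probes. The brightest probe, annotated to transcript NM_010141 and used for the gene, differed by 0.39 ± 0.26 between the lines with RA (limma adjusted p = 0.327). Both other probes are annotated to NM_001122889. One read -3.47 and -3.79 in parental untreated, -4.58 and -4.20 in parental RA, -3.54 and -3.34 in clone untreated and -1.93 and -1.74 in clone RA. Clone RA arrays stood above the rest. With every probe fitted on its own, it was 2.55 ± 0.30 higher in the clone with RA (limma adjusted p = 0.00218) and 1.60 ± 0.30 higher after RA in the clone (limma adjusted p = 0.0447). The other gave 1.42 ± 0.29 (limma adjusted p = 0.0165) and 1.36 ± 0.29 (limma adjusted p = 0.0604). In that fit 19.8% of probes were called between the lines with RA and 2.82% for RA in the clone. The difference between the probes was not tested.

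**Figure D5:**
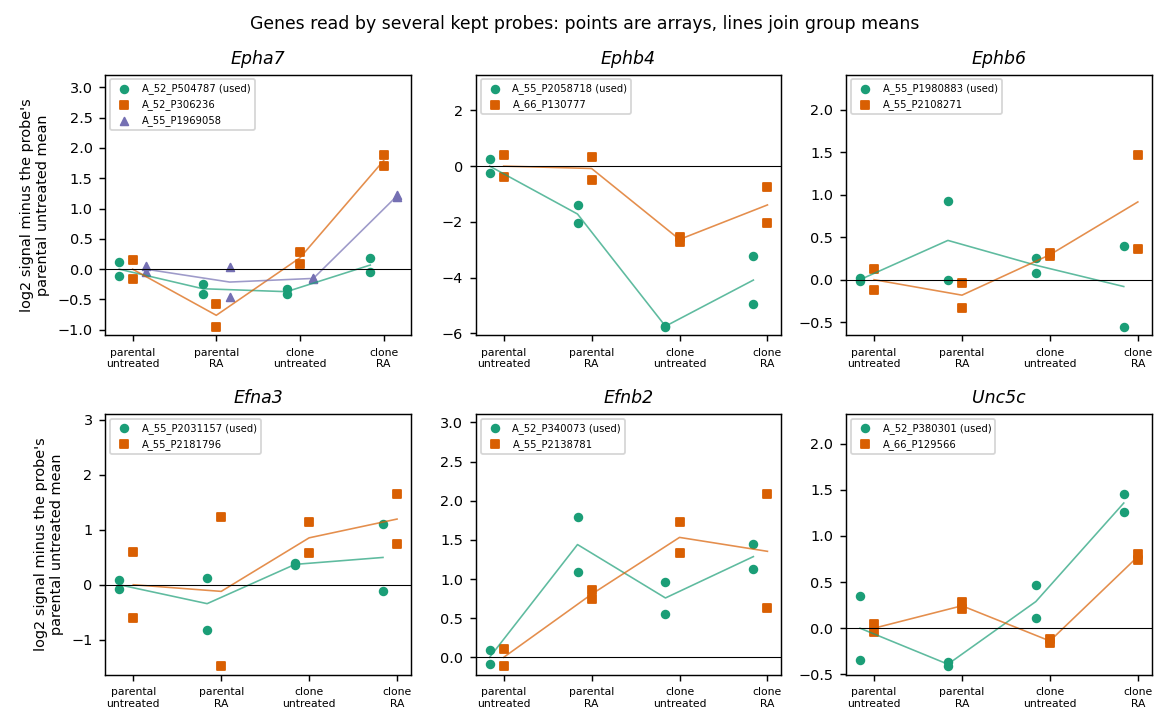
Log2 signal on each array minus the mean of the same probe in parental untreated cells (vertical axis, own scale in each panel), by group, for the 6 genes read by more than 1 probe above background; each colour is a probe, points are arrays and lines join means of 2 arrays. For Epha7 the clone RA points of 2 probes rise to between 1 and 2 while those of the used probe stay near 0, and for Ephb4 the used probe falls farther in the clone than the second.

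The interaction, which asks whether the RA response of the clone differed from that of the parental line, was called for 0 of 24 genes by limma, against 0.206% of all features, 0.122% higher and 0.0838% lower. At an unadjusted p under 0.05, 7 of the 24 passed, a far looser threshold than that of the 0.206%. Under the alternatives that kept both arrays of each group, 2454 to 4536 of all features passed it. The number tested varied among those alternatives, so whether 7 stands above the background was not tested. Epha10 had the lowest adjusted p, 0.0873, with a response 3.85 ± 0.69 higher in the clone (95% interval 2.21 to 5.49). Ephb4 followed in size with 3.37 ± 0.79 (limma adjusted p = 0.136), Slit2 with 1.97 ± 0.59 (0.207), Unc5a with 1.77 ± 0.36 (0.114) and Unc5c with 1.46 ± 0.46 (0.228). Efnb3 and Slit1 had lower responses in the clone, by -1.86 ± 0.50 (limma adjusted p = 0.175) and -1.40 ± 0.37 (0.171). With a trended and robust variance Epha10 and Unc5a were called. Without clone RA replicate 2 the interaction was 4.39 for Epha10 and 4.22 for Ephb4. Clone RA then rested on replicate 1 alone, the array marked for evaluation. A difference in RA response was thus not established for these genes at this number of arrays.

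Partners of the receptors and ligands, inside the cell, on its surface or secreted, were read from 3 further lists. These were chosen with earlier results of these data known, so the counts describe the lists and test no pathway. Of 23 tested partners of Eph and ephrin signalling, 1 was higher and 0 lower in the clone without RA, and 4 were higher and 1 lower with RA. The shares of all features were 9.84% and 23.2%, so neither count stands above the background. When an array was left out, 0 to 2 and 2 to 5 were called. Chn2, a chimaerin that switches off Rac downstream of Eph receptors, was higher by 1.90 ± 0.29 and 2.55 ± 0.29 (limma adjusted p = 0.00825 and 0.00144). Vav3, a guanine nucleotide exchange factor that activates Rac, was higher by 2.87 ± 0.52 and Kalrn, another exchange factor, by 1.55 ± 0.30 with RA (limma adjusted p = 0.00901 and 0.0114). For RA in the clone 1 of 23 was called, lower: Ngef, the exchange factor ephexin that couples EphA receptors to the actin cytoskeleton. Both clone RA arrays read it as not well above background, with a bound of 2.47-fold under the main processing. Ngef differed by a measured -3.41 ± 0.41 (limma adjusted p = 0.0175), against 4.63% of all features called. In the parental line it was not well above background with RA either, with a measured difference of -2.33 ± 0.41 (limma adjusted p = 0.0552), and the average RA difference over both lines was called (-2.87 ± 0.29, limma adjusted p = 0.00874). When an array was left out, 0 to 2 of the 23 were called for RA in the clone. In the parental line 0 of 23 were called, against 1.13% of all features, with 4 at an unadjusted p under 0.05. Under the alternatives that kept both arrays of each group, 2202 to 4860 of all features passed that threshold there. The main fit tested 26247 features, and the number varied among those alternatives. Whether 4 of 23 stands above the background was therefore not tested.

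Of 18 tested partners of Slit and Robo signalling, 3 were higher and 0 lower in the clone without RA, and 5 were higher and 0 lower with RA. All features were called at 9.84% and 23.2% in either direction, and at 6.14% and 12.9% higher. The count with RA is near the background in either direction. Whether it stands above the share called higher was not tested. Without 1 array, 0 to 3 and 3 to 5 of the 18 were called. Flrt3, a membrane protein that binds Robo1 and Unc5 receptors, was higher by 1.79 ± 0.33 without RA and 4.41 ± 0.33 with RA (limma adjusted p = 0.0173 and 0.000318). In the clone it was 2.02 ± 0.33 higher with RA than untreated (limma adjusted p = 0.0269). It was the 1 partner of 18 called for RA in the clone, against 4.63% of all features, 2.58% higher. That count is near the background, and the call did not stand in every fit with an array left out. Gpc1, a heparan sulphate proteoglycan that binds Slit, was 2.07 ± 0.33 higher and Abl1, a kinase that acts on Robo, 1.61 ± 0.34 higher without RA (limma adjusted p = 0.00975 and 0.0294). Srgap3, a Slit-Robo GTPase-activating protein, was 2.69 ± 0.36 higher and Pak1, a Rac effector, 2.21 ± 0.31 higher with RA (limma adjusted p = 0.0028 and 0.00346). For RA in the parental line 0 of 18 were called, against 1.13% of all features, with 0 at an unadjusted p under 0.05.

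Of 20 tested partners of netrin signalling, 4 were higher and 0 lower in the clone without RA, and 11 were higher and 0 lower with RA, against 6.14% and 12.9% of all features called higher. Without 1 array these counts were 3 to 5 and 7 to 9, and under the other settings 3 to 8 and 6 to 12. Their median differences were 0.90 and 1.08, beside 0.11 and 0.11 over all features. The list was chosen with earlier results of these data known, so these counts and medians are no test of netrin signalling. Dscam, a cell adhesion molecule that also binds netrin, was higher by 3.96 ± 0.29 and 4.19 ± 0.29 (limma adjusted p = 0.000473 and 0.00024). Flrt1, a relative of Flrt3 that binds Unc5 receptors, was higher by 2.71 ± 0.35 and 2.52 ± 0.35 (limma adjusted p = 0.00406 and 0.00295). Ntng2, a membrane-anchored netrin-G, was not well above background in parental untreated cells and at least 4.12-fold higher in the clone (limma adjusted p = 0.00557). Ablim1, an actin-binding protein, was 4.92 ± 0.52 higher with RA (limma adjusted p = 0.00111). For RA 0 of 20 were called in either line by limma, against 1.13% of all features in the parental line and 4.63% in the clone. In each line 2 of the 20 had an unadjusted p under 0.05. Under the alternatives that kept both arrays of each group, 2202 to 4860 of all features passed that threshold in the parental line. In the clone 3709 to 7329 did. The number tested varied among those alternatives, so these counts give no share to set beside the 20 partners.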

How the data were processed

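RNA of 8 samples was hybridised to 1-colour mouse arrays (Cy3), 2 in each of 4 groups. Per the file headers, intensity values were extracted by the submitters with Feature Extraction 10.7.3.1, which subtracts background. The deposited series table holds log2 values that differ from the scanner values by a constant per array (0.15 to 0.26, largest departure 1.95e-06). Its scale and direction are therefore settled, and it served as an alternative.

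Here log2 intensity was centred on the 75th percentile of each array's non-control spots, outlier spots were dropped and spots of a probe averaged. A probe was kept where 2 or more of the 8 arrays read it well above background (36616 of 55681). A gene was read by its brightest kept probe, giving 26247 features. Array count limits the precision. Groups were compared with limma 3.58.1 in R 4.3.3 (4 residual and 3 prior degrees of freedom, Benjamini-Hochberg over all features), after testing on simulated data. Probes were named through RefSeq accessions. A bound for a dim probe is as defined beside its first use.

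All member genes are named. Of each partner list, at most 3 called genes per comparison are named, by adjusted p. One listed cell type marker is not reported here and was left out of its list's count and sum. Members and lists were chosen with earlier results of these data known. Alternatives covered background correction (normexp, offset 50), scaling, source of values, dim-probe filter, floor, outlier spots, choice of probe, variance model, samples in the fit, slide side and leaving out each array. The array files name build mm9, so their coordinates were not used.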

Additional observations from a re-analysis of the deposited data

How the results depend on the processing

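No called member difference changed sign under any alternative run: of 718 values for called differences, 588 stayed called and 130 were no longer past the threshold. Among 2556 values for differences not called, 30 became called and 98 changed sign while staying uncalled. The number of members called without RA (5) was 3 with normexp correction, 2 with no filter on dim probes, 3 with every probe on its own and 2 to 5 when an array was left out. With RA (11) it was 7 when only the groups compared were fitted, 14 with a trended and robust variance, and 8 to 10 when an array was left out. For RA in the clone (3) it was 0 under normexp, 0 unfiltered, 5 using the probes detected on every array, 5 with a trended and robust variance, 0 with only the groups compared and 0 to 4 when an array was left out. For RA in the parental line (1) it was 0 under normexp, 0 unfiltered, 2 using the probes detected on every array and 0 to 1 when an array was left out. For the average RA effect (4) it was 2 with normexp, 1 with no filter and 0 to 4 when an array was left out. For the interaction (0) it was 2 with a trended and robust variance and 0 to 2 when an array was left out. For the average line difference (13) it stayed between 11 and 14. The cause was not tested. Calls over all features moved too when an array was left out: from 2582 to between 786 and 3174 without RA, and from 1216 to between 0 and 3032 for RA in the clone. Under the other settings the numbers were 1213 to 3347 and 0 to 2172. Normexp moved the median of all features to -0.19 for the untreated lines, -0.22 for RA in the parental line and 0.20 for the interaction. Quantile scaling moved it to -0.15 (lines with RA), -0.13 (RA in the clone) and -0.15 (interaction). The labels give no replicate numbers that pair arrays across groups. With slide side as a block, each side holding 1 array of each group, the calls of Efna5 without RA (adjusted p = 0.0584) and of Ntn3 for the average RA effect (0.0553) were lost and that of Efnb2 for the average RA effect (0.0466) was gained. Dim genes such as Epha1 and Epha10 have the least certain size. The folds of Slit1 and Ephb4 rest on a low signal in 1 of the lines, and their size is uncertain too. The number of arrays limits every interval.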

Other observations

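Several members lie near each other on a chromosome by the RefSeq gene order. Ephb2 and Epha8 on chromosome 4 have 3 protein-coding genes between them, and neither was called. Epha1 and Ephb6 on chromosome 6 have 18 between them, and Epha1 alone was called between the lines with RA. Epha6, Epha3, Robo1 and Robo2 follow each other among the members on chromosome 16, and none of these 4 was well above background on more than 1 array. Robo1 and Robo2 are adjacent there, with 0 protein-coding genes between them.

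The median SD between the 2 arrays of a group was 0.13 to 0.22 for the member genes and 0.21 to 0.32 over all features.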
